A study of Mus musculus with 6 samples.

Results

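The numbered Zfp genes are the mouse genes whose symbol is Zfp followed by a number alone, most of which encode zinc finger proteins. They were followed in primary dermal fibroblasts after exposure to 5-aza-2'-deoxycytidine. Members were taken by symbol from the platform's probe annotation, leaving out Zfp36, which encodes an RNA-decay factor, and Zfp42, a pluripotency marker. A member also needed at least 1 probe set with a signal above the median of its array on 3 or more of the 6 arrays. Of 303 such genes on the array 233 met this rule, out of 12194 genes tested in all. Members were thus chosen by symbol and selected on the signal level of the same 6 arrays, without regard to group. The family itself was picked with earlier results of these data known, so its counts and medians only describe its members.

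The treated group was 3 cultures that received 5 µM 5-aza-2'-deoxycytidine (decitabine) during 96 hours, with fresh drug every 24 hours, followed by 24 hours in normal medium. The control group was 3 untreated cultures. All 6 came from the dermis of B6 mice of mixed sex aged 0 to 2 days, were grown out of skin explants separately for each biological replicate, and were used at passage 4. Decitabine is a cytidine analogue that traps DNA methyltransferases after it has been built into DNA. Each culture gave 1 Affymetrix expression array. The labels name no step that sorted the cells. In bulk cultures of this kind, fewer cells of a type and less RNA per cell cannot be told apart.

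Zinc finger proteins of the C2H2 class carry rows of small zinc-binding loops, and each loop contacts a few bases of DNA. Many of the numbered Zfp genes add a KRAB box, which recruits the scaffold protein Trim28 and, through it, Setdb1 and HP1 proteins that write and read the repressive H3K9 methylation mark. Such KRAB proteins are known for silencing retroelements and for protecting methylation at imprinted loci. Many lie in clusters of near-identical copies. Other numbered Zfp genes have no KRAB box and act in differentiation, at promoters, or on RNA and ribosomes, and the symbol alone does not tell these kinds apart.

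Numbered Zfp genes fell far more often than they rose. In the comparison of treated with control cultures, 10 of the 233 were called higher and 86 lower, which is 4.29% and 36.9% of them. Over all 12194 genes tested, 41.1% were called in either direction, 19.5% higher and 21.6% lower. A call is an adjusted p under 0.05 in limma. The median log2 change of the 233 genes was -0.30, with quartiles of -0.66 and 0.01, against a median of -0.00 over all genes tested. The change lay below 0 for 172 members and above 0 for 61, and over all genes tested for 6127 and 6067. Changes of at least 2-fold were called for 3 members that rose and 18 that fell. Over all 12194 genes tested they were called for 657 that rose and 738 that fell. Leaving out members that were above the array median in 1 group alone gave 2 and 15 of 218 members. Leaving out such genes from all genes tested gave 471 and 590 of 11726. With the deposited signals left unscaled, 8 members rose and 49 fell, which is 3.43% and 21.0% of them. Under that setting 8.92% of all genes tested rose and 13.5% fell.

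**Figure D1:**
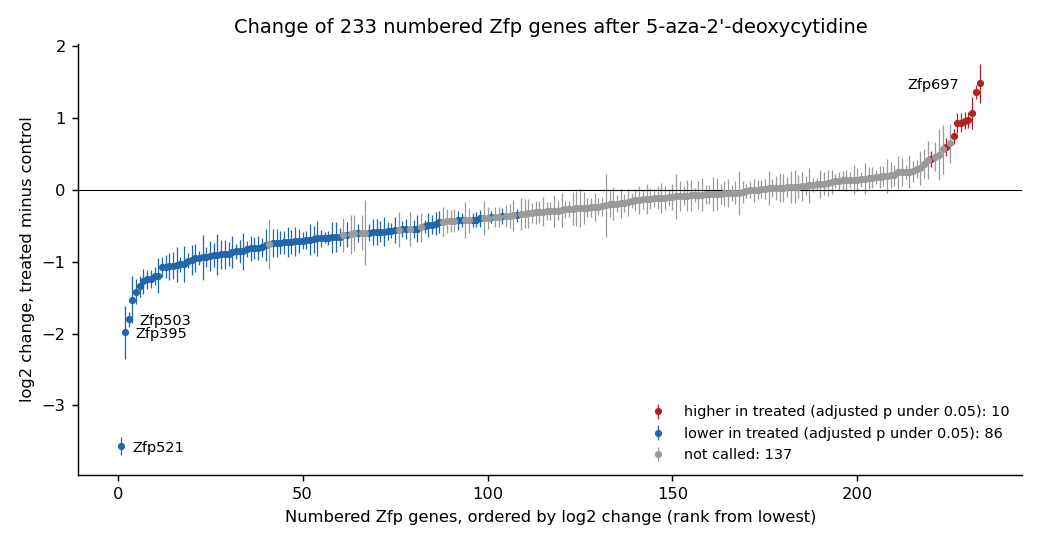
Each point is 1 of the 233 numbered Zfp genes, placed by rank on the x axis and by its log2 change, treated minus control, on the y axis, and the bar is the SE. The 10 genes called higher and the 86 called lower are coloured, 137 genes were not called, and Zfp521 lies apart at -3.57.

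Every log2 change is treated minus control on the scale log2(scaled signal + 9.66). It understates the change of dim genes. The 3 treated arrays lay wholly above the 3 control arrays for 16 members and wholly below them for 116. Over all genes tested such separation was found for 25.1% in the upward and 27.4% in the downward direction. Of the 233 members, 175 were above the array median on all 6 arrays, and 8 of these rose and 62 fell. Among all genes of that class 19.9% rose and 22.8% fell. In 43 members some arrays of both groups were above the median, with 1 that rose and 12 that fell. For all genes of this second class the shares were 9.83% and 10.1%. Another 14 met the rule through control arrays alone and 1 through treated arrays alone. Those 15 had to differ between groups to be included, and their changes are no result. Among the other 218 members 9 rose and 74 fell, with a median of -0.26. With such genes left out of all genes tested, 18.4% of 11726 rose and 20.9% fell.

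Features of the whole series moved with the treatment as well. Log2 signals of 2 arrays of one group correlated at 0.972 to 0.974, and those of a treated and a control array at 0.863 to 0.883. All 11 fibroblast markers were tested, 8 fell and 1 rose, and their summed signal was 32787 to 39393 in treated and 59878 to 66131 in control cultures. For 7 keratinocyte markers the summed signal was 416 to 622 in treated and 215 to 321 in control cultures, and for 6 leukocyte markers 748 to 871 in treated and 542 to 657 in control cultures. It was 392 to 436 in treated and 252 to 304 in control cultures for 3 neuronal and Schwann cell markers, and 4509 to 5265 in treated and 651 to 777 in control cultures for 5 skeletal muscle markers. The groups overlapped for 5 endothelial markers (229 to 327 in treated, 241 to 281 in control cultures) and for 5 melanocyte markers (450.3 to 578 in treated, 439 to 565 in control cultures). The separate ranges of keratinocyte markers came from Dsp, which was above the array median in treated cultures alone (log2 change 2.91). Without Dsp the sums were 236 to 291 in treated and 198 to 286 in control cultures, and Krt1, Krt14, Trp63 and Cdh1 were too dim to be tested. Other markers called higher were Acta1 (3.05) and Des (0.99) of muscle, Tubb3 (0.67) of neurons, Cd68 (1.08) of leukocytes and Cdh5 (0.83) of endothelium, the last through treated arrays alone. The endothelial marker Tek was called lower (-0.78), through control arrays alone. Without Acta1 the muscle sum was 211 to 255 in treated and 131 to 174 in control cultures, and without Cd68 the leukocyte sum was 641 to 759 in treated and 504 to 584 in control cultures. Without Tubb3 the neuronal sums overlapped (104 to 145 in treated, 74.8 to 122 in control cultures). Of the defining markers, Myod1, Myog and Myf5 of muscle, Pecam1 and Tie1 of endothelium, Snap25 of neurons, and Ptprc and Itgam of leukocytes were above the array median on fewer than 3 arrays. The ratio of 3' to 5' signal of the Actb control probe sets, a sign of RNA integrity, was 1.16 ± 0.019 in treated and 1.26 ± 0.010 in control cultures (SD, n = 3 each). A two-sided exact permutation test gave p = 0.1, which is as low as 3 against 3 arrays can go. The part of these features in the changes of the numbered Zfp genes was not tested.

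Other zinc finger families were set beside the numbered Zfp genes and beside all 12194 genes tested, of which 19.5% rose and 21.6% fell. Among 32 numbered Zbtb genes, whose products pair zinc fingers with a BTB domain, 3 rose and 7 fell, with a median log2 change of -0.05. The share of Zbtb genes that fell, 21.9%, is near that of all genes. Among 14 Zscan and Zkscan genes, many with a SCAN domain, 0 rose by limma and 5 fell, and in 13 the change was below 0, with a median of -0.30. Of the 20 numbered Klf and Sp genes, which encode GC-box factors, 1 rose and 7 fell, with a median of -0.15. Without a gene above the median in 1 group alone, the counts were 2 and 7 of 31 for Zbtb. For Klf and Sp they were 1 and 6 of 19, with a median then of 0.05. Of the 11726 genes that remain in all without such genes, 18.4% rose and 20.9% fell. The differences between families were not tested. With the signals left unscaled 1 Zbtb gene rose and 1 fell, and of all genes tested 8.92% rose and 13.5% fell. Without treated replicate 1 or without control replicate 1, 4 Zbtb genes fell, and of all genes tested 18.5% and 17.9% fell. Of the Klf and Sp genes, 0 rose by limma without treated replicate 2 or without control replicate 2, and 2 rose without control replicate 1. In these settings, in that order, 16.3%, 17.8% and 17.5% of all genes tested rose.

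**Figure D2:**
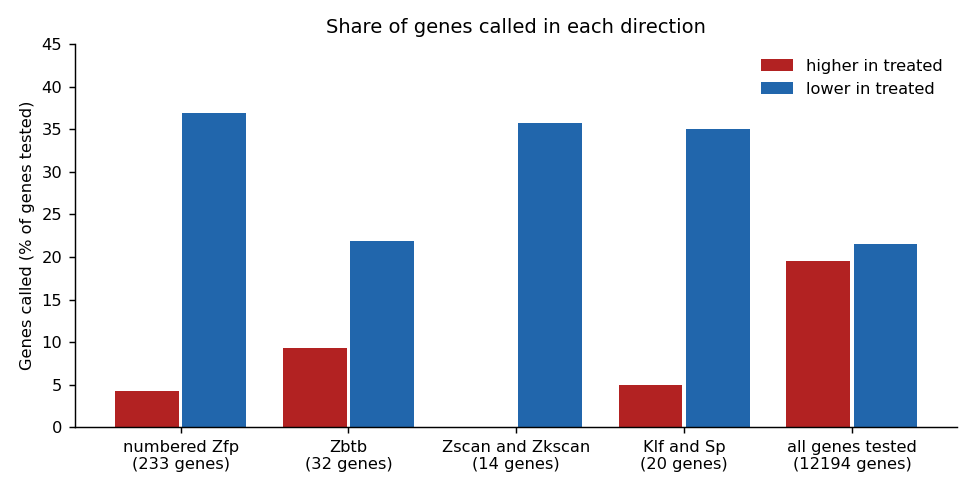
Bars give the percentage of genes tested that were called higher (left bar) or lower (right bar) in treated cultures, for the numbered Zfp genes, 3 other zinc finger families and all genes tested. Lower calls made up 36.9% of numbered Zfp genes and 21.6% of all genes, and higher calls 4.29% and 19.5%.

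The 10 members that rose had changes between 0.43 and 1.49. Zfp697, on chromosome 3, had signals of 207, 194 and 144 in treated cultures 1 to 3, against 34.7, 83.7 and 65.3 in control cultures 1 to 3. Its log2 change was 1.49 ± 0.27 (SE; adjusted p = 0.00213), and a second, mostly dimmer probe set gave 0.52 (adjusted p = 0.0825). Zfp37, a KRAB gene on chromosome 4 known from the testis, had signals of 621, 574 and 569 in treated cultures 1 to 3, against 225, 207 and 236 in control cultures 1 to 3. Every treated culture lay far above every control culture, and the change was 1.36 ± 0.10 (SE; adjusted p = 7.26e-06).

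Zfp809, on chromosome 9, encodes a KRAB protein that binds the primer binding site of murine leukaemia virus and silences such proviruses in embryonic cells. Its signals were 419.8, 390.5 and 449.8 in treated cultures 1 to 3, against 227, 204 and 198 in control cultures 1 to 3, a change of 0.97 ± 0.11 (SE; adjusted p = 0.000103). Zfp560, on the same chromosome, had 420.2, 391 and 377 in treated cultures 1 to 3, against 194, 179.8 and 224 in control cultures 1 to 3, a change of 0.96 ± 0.12 (SE; adjusted p = 0.000167). In both genes the groups were far apart beside the spread within them. Zfp365, on chromosome 10, whose human counterpart is a p53 target that protects telomeres and fragile sites, had 326, 353 and 327 in treated cultures 1 to 3, against 193, 145 and 177 in control cultures 1 to 3, a change of 0.94 ± 0.13 (SE; adjusted p = 0.000383). Zfp593, on chromosome 4, is related to a yeast factor of 60S ribosomal subunit export. It had 482, 455 and 409 in treated cultures 1 to 3, against 283, 211 and 206 in control cultures 1 to 3, a change of 0.93 ± 0.14 (SE; adjusted p = 0.000606), at a probe set whose name marks shared probes. Its other probe set, with signals from 8.89 to 94.4, gave 0.88 (adjusted p = 0.214).

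The remaining risers were smaller or dimmer. Zfp52 and Zfp53 follow each other among the numbered Zfp genes of chromosome 17. Zfp52 had 772, 787 and 803 in treated cultures 1 to 3, against 449.8, 423 and 533 in control cultures 1 to 3, and Zfp53 had 240.0, 270.5 and 249 in treated cultures 1 to 3, against 153, 156 and 183 in control cultures 1 to 3. Their changes were 0.74 ± 0.10 (SE; adjusted p = 0.000372) and 0.60 ± 0.12 (SE; adjusted p = 0.0039), and a dim second probe set of Zfp52 gave 0.13 (adjusted p = 0.779), so that the mean over both was 0.44 (adjusted p = 0.0283). Zfp428 (change 1.07 ± 0.22, SE) met the rule through treated arrays alone, with signals of 95.7, 99.4 and 99.4 in treated cultures 1 to 3, against 32.2, 42.9 and 52.0 in control cultures 1 to 3. Zfp958, on chromosome 8, changed by 0.43 ± 0.12 (SE; adjusted p = 0.0163) and lost its call without treated replicate 2 (adjusted p = 0.0609). Of the 10 calls, 8 were kept in every alternative in which the gene was tested. Zfp958 and Zfp53 lost theirs with the signals left unscaled, with 0.36 (adjusted p = 0.41) and 0.53 (adjusted p = 0.163).

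**Figure D3:**
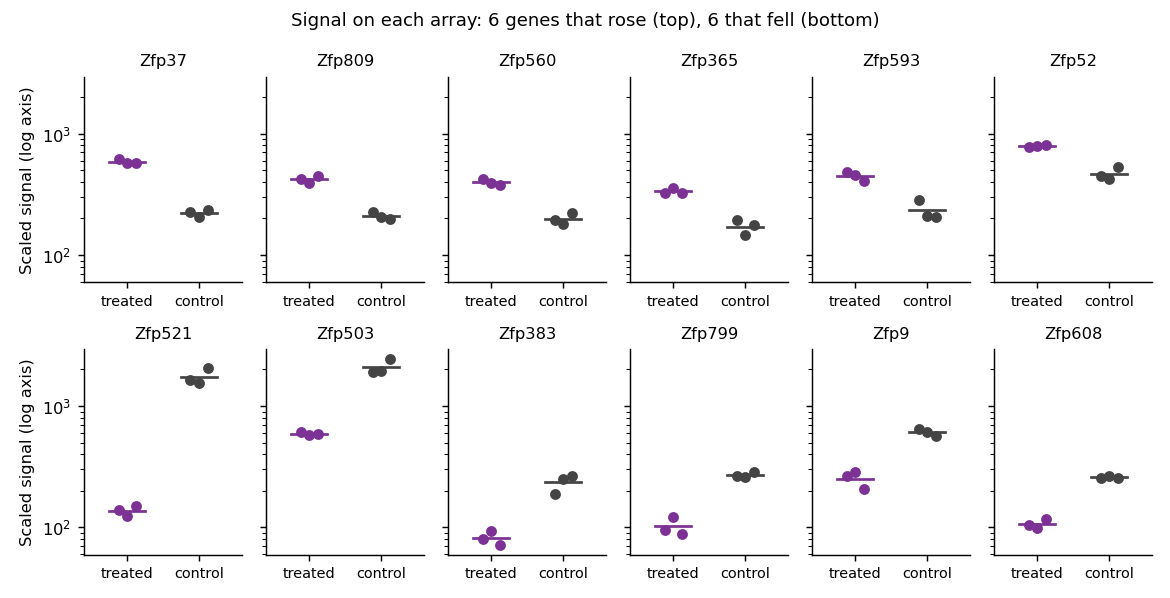
Each panel shows the scaled signal of 1 gene on a log axis, with treated cultures on the left, control cultures on the right, 1 point per array and a line at the group mean. In the upper 6 genes every treated array is above every control array, and in the lower 6 every treated array is below every control array. Zfp521 averaged 137 in treated and 1744 in control cultures.

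Zfp521 had the largest fall. It encodes a large multi-finger protein that regulates blood, neural and mesenchymal progenitors and restrains commitment to fat cells. Its signals were 139, 123 and 149.8 in treated cultures 1 to 3, against 1648, 1534 and 2049 in control cultures 1 to 3. Every treated culture was far below the lowest control culture, and the log2 change was -3.57 ± 0.13 (SE; adjusted p = 1.01e-07). Zfp503, on chromosome 14, a corepressor known from striatum and limb development, had 609, 579 and 585 in treated cultures 1 to 3, against 1917, 1931 and 2446 in control cultures 1 to 3. Its change was -1.80 ± 0.10 (SE; adjusted p = 1.73e-06), with the groups again far apart.

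Most of the next fallers were of moderate signal. Zfp383, on chromosome 7, had 80.2, 92.8 and 71.0 in treated cultures 1 to 3, against 187, 250.4 and 266 in control cultures 1 to 3, a change of -1.42 ± 0.17 (SE; adjusted p = 0.000183). Zfp799, on chromosome 17, had 94.4, 123 and 87.9 in treated cultures 1 to 3, against 266, 261 and 284 in control cultures 1 to 3, a change of -1.34 ± 0.15 (SE; adjusted p = 9.53e-05). Zfp9, on chromosome 6, had 266, 284 and 208 in treated cultures 1 to 3, against 646, 613 and 565 in control cultures 1 to 3, a change of -1.25 ± 0.13 (SE; adjusted p = 6.26e-05). In all 3 the highest treated array lay well under the lowest control array. Zfp277, on chromosome 12, which in mouse fibroblasts is known to act with Polycomb proteins at the Ink4a/Arf locus, had 227, 195 and 259 in treated cultures 1 to 3, against 545, 511 and 583 in control cultures 1 to 3. It changed by -1.24 ± 0.12 (SE; adjusted p = 4.62e-05) at this probe set, while a dimmer one gave 0.35 (adjusted p = 0.454) and the mean over both gave -0.44 (adjusted p = 0.107).

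Zfp608 averaged 107 ± 8.98 in treated and 258 ± 5.8 in control cultures (SD, n = 3 each), a change of -1.20 ± 0.12 (SE; adjusted p = 6.57e-05). Zfp62, on chromosome 11, averaged 180.5 ± 14.8 in treated and 392 ± 66.3 in control cultures (SD, n = 3 each), a change of -1.07 ± 0.14 (SE; adjusted p = 0.000255). Zfp157, on chromosome 5, averaged 62.0 ± 7.85 in treated and 163 ± 20.4 in control cultures (SD, n = 3 each), a change of -1.27 ± 0.17 (SE; adjusted p = 0.000364). In these 3 genes no treated array reached the lowest control array. Zfp810, on chromosome 9, averaged 51.0 ± 10.2 in treated and 131 ± 38.7 in control cultures (SD, n = 3 each), a change of -1.19 ± 0.24 (SE; adjusted p = 0.00353), again without overlap. Zfp395 and Zfp235 met the rule through control arrays alone. Zfp395 had 6.22, 7.62 and 17.8 in treated cultures 1 to 3, against 70.9, 66.0 and 66.9 in control cultures 1 to 3, and Zfp235 had 34.4, 13.3 and 20.4 in treated cultures 1 to 3, against 96.0, 64.8 and 83.2 in control cultures 1 to 3, so that their treated signals lay near the pseudocount. Their changes were -1.98 ± 0.37 and -1.53 ± 0.33 (SE).

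The bases before the start sites of 5 of these genes are shown, since CpG dinucleotides are the sites that DNA methyltransferases modify and the genes moved in opposite directions. The 5 were picked by hand with their values known, so they are examples only. Each sequence holds the 250 bases before the annotated start, written 5′ to 3′ from RefSeq, assembly GRCm38.p6, with every CpG in capitals. The first 3 belong to genes that rose, Zfp697 (chr3:98382231-98382480 on the + strand), Zfp37 (chr4:62208547-62208796 on the - strand) and Zfp809 (chr9:22225453-22225702 on the + strand). The last 2 belong to genes that fell, Zfp810 (chr9:22307639-22307888 on the - strand) and Zfp503 (chr14:21989602-21989851 on the - strand). Methylation was not measured here.
Zfp697: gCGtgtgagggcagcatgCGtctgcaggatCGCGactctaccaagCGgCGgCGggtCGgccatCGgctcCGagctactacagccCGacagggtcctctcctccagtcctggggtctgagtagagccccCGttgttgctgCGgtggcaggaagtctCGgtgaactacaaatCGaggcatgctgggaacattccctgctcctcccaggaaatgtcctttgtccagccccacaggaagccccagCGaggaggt
Zfp37: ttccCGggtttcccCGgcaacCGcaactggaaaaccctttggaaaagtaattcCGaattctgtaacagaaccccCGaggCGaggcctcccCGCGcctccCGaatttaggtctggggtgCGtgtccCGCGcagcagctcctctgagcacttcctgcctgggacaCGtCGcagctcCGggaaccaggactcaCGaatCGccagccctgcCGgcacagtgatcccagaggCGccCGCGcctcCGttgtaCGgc
Zfp809: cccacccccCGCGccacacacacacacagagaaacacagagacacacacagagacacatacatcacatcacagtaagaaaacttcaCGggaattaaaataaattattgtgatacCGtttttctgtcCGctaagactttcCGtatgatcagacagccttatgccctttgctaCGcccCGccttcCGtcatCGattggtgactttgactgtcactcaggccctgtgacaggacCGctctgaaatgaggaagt
Zfp810: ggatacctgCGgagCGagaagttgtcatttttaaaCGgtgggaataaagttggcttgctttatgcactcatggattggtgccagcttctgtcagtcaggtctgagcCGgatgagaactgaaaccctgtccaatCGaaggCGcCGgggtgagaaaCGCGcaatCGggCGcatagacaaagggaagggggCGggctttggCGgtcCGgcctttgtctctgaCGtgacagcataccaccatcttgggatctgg
Zfp503: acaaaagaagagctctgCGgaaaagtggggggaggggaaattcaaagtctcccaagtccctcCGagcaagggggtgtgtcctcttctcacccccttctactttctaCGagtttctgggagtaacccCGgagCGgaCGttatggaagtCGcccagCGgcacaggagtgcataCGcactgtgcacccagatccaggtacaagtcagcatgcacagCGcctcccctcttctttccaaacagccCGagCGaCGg

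The windows of the 3 genes that rose held 16 CpGs in Zfp697, 23 in Zfp37 and 11 in Zfp809. Those of the genes that fell held 15 in Zfp810 and 13 in Zfp503. The ranges of the risers and the fallers overlapped. Zfp809 and Zfp810 lie in the same stretch of chromosome 9 with 1 other coding gene, Zfp599, between them, which was dim and not tested. Zfp809 rose and Zfp810 fell.

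A promoter of this length was available for 191 of the 233 members, and where several starts were listed, as for 37 members, the first was used. The median number of CpGs was 11 in the 9 risers with a promoter, 11 in 69 fallers, 13 in 113 members that were not called and 15 over 9827 genes tested. CpG content was also expressed as observed over expected, the count relative to that given by the C and G content. Of members at or above 0.6 on this measure, 5 of 109 rose and 34 fell, with a median log2 change of -0.20. Of those under 0.6, 4 of 82 rose and 35 fell, with a median of -0.41. Over all genes tested the lower calls were 22.2% of 6425 genes at or above 0.6 and 19.96% of 3402 genes under it. Across the 191 members the correlation between this ratio and the log2 change was weak (Pearson r = 0.10, Spearman rho = 0.11). The ratio was taken from the bases before the start, and base composition where the probes bind was not examined.

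Short motifs were searched on both strands of the same windows. The palindromic consensus of NRF1, a factor whose site holds CpGs, was present in 7 of the 191 members (3.66%), 1.57% of genes tested and 0.781% of all promoters in the table. Of these 7 members Zfp141 fell (-0.58, adjusted p = 0.0439), a call lost without any 1 of the arrays treated 1, treated 2, treated 3, control 1 and control 3, and the other 6 were not called. A core of the ZNF143 site was present in 8 members (4.19%), 2.34% of genes tested and 1.04% of all promoters. Among those 8, Zfp58 fell and the other 7 were not called. The CRE site TGACGTCA was present in 5 members (2.62%), 2.69% of genes tested and 1.62% of all promoters. Of those 5, Zfp266 fell (-0.85, adjusted p = 0.000194) and the other 4 were not called. Zfp141 and Zfp266 are named because they carry a motif, after their values were seen. These matches describe letters, not bound sites.

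Most tested members with known roles in the differentiation of mesenchyme and other tissues fell. Of 7 tested, 6 fell and 0 rose by limma, with a median log2 change of -1.04. Over all genes tested 21.6% fell and 19.5% rose. The role lists were chosen with earlier results of these data known, so their counts and medians only describe the genes listed. Besides Zfp521, Zfp503 and Zfp608, the genes of this list that fell were Zfp467, Zfp516 and Zfp462. Zfp467, which in mouse stromal cells favours fat over bone, had 30.4, 33.1 and 37.9 in treated cultures 1 to 3, against 72.4, 93.4 and 74.1 in control cultures 1 to 3, a change of -1.04 ± 0.24 (SE). It met the rule through control arrays alone, and without it 5 of 6 fell. Zfp516, an activator of the brown fat gene Ucp1, averaged 141 ± 17.8 in treated and 257 ± 43.4 in control cultures (SD, n = 3 each), a change of -0.81 ± 0.16 (SE; adjusted p = 0.00267) at a probe set with shared probes. Its other probe set gave -0.17 (adjusted p = 0.413). Zfp462, a chromatin factor of embryonic stem cells and neurons, averaged 327 ± 20.5 in treated and 490.0 ± 36.5 in control cultures (SD, n = 3 each), a change of -0.57 ± 0.10 (SE; adjusted p = 0.00174), and was not called with the signals left unscaled (adjusted p = 0.0555). Zfp703, a relative of Zfp503, had 265, 277 and 379 in treated cultures 1 to 3, against 242, 262 and 161 in control cultures 1 to 3. The treated arrays were all higher, but the change of 0.46 ± 0.20 (SE) was not called (adjusted p = 0.0919). Zfp423, a marker of fat precursors, was not tested, and its highest signal on any array was 9.39. Zfp750, a regulator of epidermal differentiation, was not tested either.

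**Figure D4:**
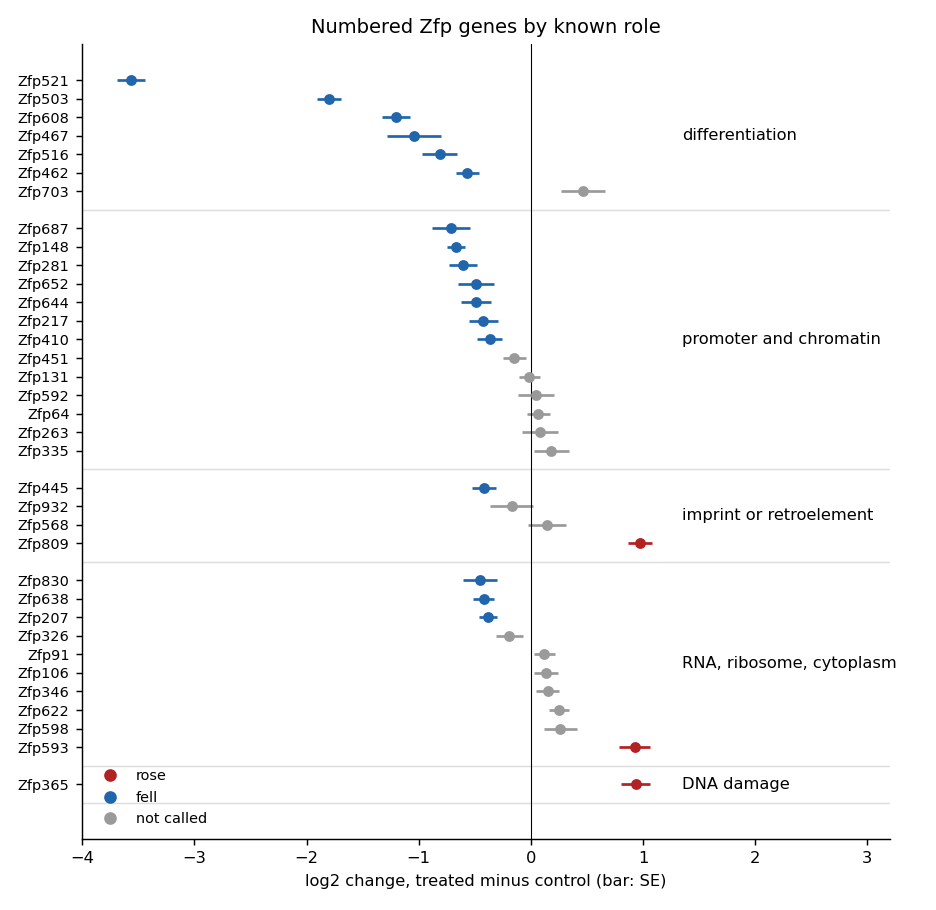
Points give the log2 change, treated minus control, of the tested members of 5 role groups, with the SE as a bar. The differentiation group holds 6 genes that fell of 7, and the groups for imprints or retroelements and for RNA, ribosome or cytoplasm hold genes on both sides of 0.

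Of 13 tested promoter and chromatin factors, 7 fell and 0 rose by limma, with a median log2 change of -0.37. Over all genes tested 21.6% fell and 19.5% rose, and this list too was chosen with earlier results known. Zfp148 and Zfp281 bind GC-rich promoter elements. Zfp148 had 591, 626 and 625 in treated cultures 1 to 3, against 964, 989 and 986 in control cultures 1 to 3, a change of -0.67 ± 0.077 (SE; adjusted p = 0.000135), and 5 of its 6 probe sets were called lower. Zfp281 averaged 382 ± 33.3 in treated and 588 ± 93.0 in control cultures (SD, n = 3 each), a change of -0.60 ± 0.13 (SE; adjusted p = 0.00413), and a probe set with lower signals gave -0.36 (adjusted p = 0.0942). Zfp687, a partner of the chromatin reader Zmynd8, averaged 95.1 ± 15.5 in treated and 161 ± 16.2 in control cultures (SD, n = 3 each), a change of -0.71 ± 0.17 (SE; adjusted p = 0.00767). Smaller falls were called for Zfp652 (-0.49, adjusted p = 0.0395), for Zfp644 (-0.49, adjusted p = 0.0176), a partner of the H3K9 methyltransferases Ehmt1 and Ehmt2, for Zfp217 (-0.42, adjusted p = 0.0258), whose human counterpart is an oncogene in corepressor complexes, and for Zfp410 (-0.37, adjusted p = 0.0257), an activator of Chd4. These 4 calls depended on single arrays: they were lost for Zfp652 without treated 1, treated 3, control 1 or control 2 (adjusted p 0.0994 to 0.127), Zfp644 without treated 1, treated 3, control 1 or control 2 (adjusted p 0.0575 to 0.0635), Zfp217 without treated 1, treated 2, control 1 or control 3 (adjusted p 0.0626 to 0.0829) and Zfp410 without treated 1, treated 2 or control 1 (adjusted p 0.0726 to 0.0906). With the signals left unscaled none of the 4 was called (adjusted p 0.0826 to 0.238). Zfp652 also lost its call with no filter (adjusted p = 0.0751), and Zfp644 and Zfp410 with no intensity trend (adjusted p = 0.0517 and 0.0504). At the other probe set of Zfp410 the change was 0.27 (adjusted p = 0.245), and the mean over its probe sets was -0.05 (adjusted p = 0.778).

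The other 6 factors of this group were not called. The SUMO ligase Zfp451 gave -0.15 (adjusted p = 0.289) at its brightest probe set. It was the single member whose probe sets were called in opposite directions, with 0.45 (adjusted p = 0.0194) at one and -0.64 (adjusted p = 0.00745) at another. For Zfp592, a relative of Zfp687, the brightest probe set gave 0.04 (adjusted p = 0.855) and a dimmer one gave -0.83 (adjusted p = 0.00648), while the mean over its probe sets was -0.40 (adjusted p = 0.0343), a call in the downward direction. Zfp131 (-0.01), Zfp64 (0.07), Zfp263 (0.08) and Zfp335 (0.18) had changes under 0.2 in size.

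Of 4 tested repressors of retroelements and guardians of imprints, Zfp809 rose and Zfp445 fell, with a median of -0.01. These shares of 1 in 4 each lie near those over all genes tested, 19.5% higher and 21.6% lower. Zfp445, which with Zfp57 keeps methylation at imprinted loci, had 525, 532 and 499 in treated cultures 1 to 3, against 785, 608 and 705 in control cultures 1 to 3. Its change was -0.42 ± 0.11 (SE; adjusted p = 0.0119), and it was not called with the signals left unscaled (-0.49, adjusted p = 0.151). Zfp568, a repressor of a placental Igf2 transcript, gave 0.14 (adjusted p = 0.539), and Zfp932, a repressor of endogenous retroviruses, -0.17 (adjusted p = 0.514), neither of them called. Zfp57 itself stayed between 10.4 and 13.9 signal units on every array, and it was not tested, as were not Zfp708 and Zfp819.

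Of 10 tested members that act on RNA, ribosomes or in the cytoplasm, 1 rose, 3 fell and 6 were not called, with a median of 0.13. The share called is near the 41.1% over all genes tested. The riser was Zfp593. The spindle and splicing factor Zfp207 averaged 1253 ± 89.3 in treated and 1632 ± 73.4 in control cultures (SD, n = 3 each), a change of -0.38 ± 0.082 (SE; adjusted p = 0.0051), and its 2 dimmer probe sets were not called. The RNA-binding protein Zfp638 averaged 278 ± 2.4 in treated and 376 ± 12.1 in control cultures (SD, n = 3 each), a change of -0.42 ± 0.094 (SE; adjusted p = 0.00586), and another probe set gave -0.20 (adjusted p = 0.305). With the signals left unscaled neither Zfp207 nor Zfp638 was called (adjusted p = 0.131 and 0.178). Zfp830, a splicing and replication factor, changed by -0.45 (adjusted p = 0.0427). The call was lost for Zfp830 without treated 1, treated 3, control 1, control 2 or control 3 (adjusted p 0.0564 to 0.136). It was also lost with the signals left unscaled (adjusted p = 0.157), and with quantile normalization, no filter or no intensity trend (adjusted p 0.0736 to 0.0779). The ribosome biogenesis factor Zfp622 had 1978, 1877 and 1859 in treated cultures 1 to 3, against 1476, 1526 and 1817 in control cultures 1 to 3. Its treated arrays were all higher, and its change of 0.25 ± 0.092 (SE; adjusted p = 0.058) did not pass the test with all arrays but did without control replicate 3 (adjusted p = 0.0101). Changes that were not called were 0.26 for Zfp598, a ubiquitin ligase that marks collided ribosomes, -0.19 for Zfp326, 0.14 for Zfp106 and 0.12 for Zfp91. Zfp346, which binds double-stranded RNA, gave 0.15 without a call at its brighter probe set and 0.56 (adjusted p = 0.0149) at the other, and the mean over both was called (0.35, adjusted p = 0.0289).

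The corepressor machinery that KRAB proteins recruit was measured on the same arrays. Of 27 tested genes of this list 3 rose and 11 fell, with a median of -0.15, and with the signals left unscaled 1 rose and 6 fell. Suv39h2, among the 3, met the filter through treated arrays alone, and without it 2 of 26 rose. Over all genes tested 19.5% rose and 21.6% fell, and with the signals left unscaled 8.92% and 13.5%. The corepressor list was chosen with earlier results of these data known, so its counts only describe the genes listed. Trim28, the scaffold, had 1062, 1194 and 1159.9 in treated cultures 1 to 3, against 1483, 1523 and 1443 in control cultures 1 to 3. Every treated culture was below every control culture, with a change of -0.38 ± 0.078 (SE; adjusted p = 0.00401), and the call was lost with the signals left unscaled (-0.45, adjusted p = 0.14). Setdb1, the H3K9 methyltransferase bound by Trim28, had 297, 327 and 287 in treated cultures 1 to 3, against 330.4, 336 and 324 in control cultures 1 to 3, and its change of -0.12 ± 0.10 (SE; adjusted p = 0.386) was not called. Its stabilising partner Atf7ip averaged 258 ± 26.1 in treated and 425 ± 24.3 in control cultures (SD, n = 3 each), a change of -0.70 ± 0.11 (SE; adjusted p = 0.000801), against -0.29 (adjusted p = 0.0242) for the mean over its probe sets.

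Among the HP1 genes Cbx1 changed by -0.85 ± 0.14 (SE; adjusted p = 0.00126), and Cbx5 gave -0.10 (adjusted p = 0.486), which was not called. Cbx3 changed by 0.54 ± 0.18 (SE; adjusted p = 0.0421), a call that was lost on leaving out any 1 of the 6 arrays (adjusted p 0.0553 to 0.121). For Cbx1 the direction turned when probe sets with shared probes were left out, with 0.96 (adjusted p = 0.0804), and the mean of its probe sets gave 0.02 (adjusted p = 0.902). Of the chromatin remodelling NuRD complex, Hdac2 (-0.69), Chd3 (-0.50), Chd4 (-0.42) and Rbbp7 (-0.31) fell and Gatad2a (0.68) rose. Hdac1 (-0.21), Rbbp4 (-0.15), Mta1 (0.17), Mta2 (-0.10), Mta3 (0.06), Gatad2b (-0.32) and Mbd3 (-0.05) of the same complex were not called. Calls were lost for Chd3 without treated 1 or control 1 (adjusted p 0.0749 to 0.075), Chd4 without treated 1, treated 3, control 1 or control 3 (adjusted p 0.0525 to 0.0807) and Rbbp7 without treated 2, treated 3 or control 3 (adjusted p 0.068 to 0.0922). The H3K9 methyltransferases Ehmt1 (-0.63) and Ehmt2 (-0.60), the remodeller Smarcad1 (-0.45) and the histone H3.3 loading factor Atrx (-0.84) also fell. With the signals left unscaled Gatad2a, Smarcad1, Chd3, Chd4, Rbbp7 and Cbx3 were not called (adjusted p 0.0522 to 0.362). With the mean of probe sets the change was -0.18 for Smarcad1 (adjusted p = 0.164), -0.35 for Chd4 (adjusted p = 0.0604) and -0.24 for Rbbp7 (adjusted p = 0.0548), none of them called, while Atrx (-0.51) and Gatad2a (0.40) were smaller and still called. Without shared-probe sets Chd4 gave -0.28 (adjusted p = 0.26) and Rbbp7 -0.18 (adjusted p = 0.138). Suv39h2, an H3K9 methyltransferase best known from germ cells, had 222, 207 and 147 in treated cultures 1 to 3, against 32.9, 39.4 and 41.8 in control cultures 1 to 3, with every control array below its array's median. It thus had to differ to be tested, and its log2 change of 2.06 ± 0.21 (SE) is given as a description.

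Many numbered Zfp genes lie side by side in the genome. A run was taken as numbered Zfp genes with at most 2 other protein-coding genes between one and the next in the RefSeq annotation, and 9 runs held at least 4 tested members. Copies in a run can share sequence, so probe sets of neighbours may read more than 1 transcript. Over all 233 members 4.29% rose and 36.9% fell, and over all genes tested 19.5% rose and 21.6% fell. The run with the most tested members was on chromosome 17, from Zfp677 to Zfp946, with 16 of its 18 genes tested, 2 that rose and 7 that fell. Zfp677 (-1.07, adjusted p = 0.000563) fell at one end. Then came Zfp54 (0.26) and Zfp51 (-0.13), not called, and the risers Zfp53 and Zfp52. On the far side Zfp229 (-0.56), Zfp995 (-1.05), Zfp943 (-0.67), Zfp994 (-0.91), Zfp758 (-0.65) and Zfp946 (-0.72) fell, interspersed with Zfp948 (-0.43), Zfp760 (0.06), Zfp820 (-0.36), Zfp942 (-0.07) and Zfp944 (-0.24), which were not called. The call was lost for Zfp229 without treated 1, treated 2, control 1 or control 3 (adjusted p 0.0665 to 0.101), and with the signals left unscaled (adjusted p = 0.138), and Zfp948 was called without control replicate 2 (adjusted p = 0.0479).

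A second run on chromosome 17, from Zfp871 to Zfp563, had 4 genes that fell of 5 tested. These were Zfp799, Zfp472 (-0.89), Zfp952 (-0.58) and Zfp763 (-0.73), while Zfp871 (-0.31) was not called with all arrays and was called without treated replicate 2. Calls were lost for Zfp952 without treated 1, treated 2, control 1 or control 3 (adjusted p 0.0585 to 0.0909) and Zfp763 without treated 3 or control 3 (adjusted p 0.0588 to 0.0774), and for both with the signals left unscaled (adjusted p = 0.157 and 0.068). On chromosome 13, in the run from Zfp712 to Zfp273, 2 of 8 tested genes fell, Zfp58 (-0.89) and Zfp712 (-0.69; lost without control replicate 2, adjusted p = 0.0612, and with the signals left unscaled, adjusted p = 0.0571). The other 6 there, Zfp595 (0.42), Zfp953 (-0.09), Zfp429 (-0.60), Zfp87 (-0.06), Zfp748 (-0.38) and Zfp493 (-0.10), were not called, but Zfp748 was called with the mean of probe sets (adjusted p = 0.0478) and with no intensity trend (adjusted p = 0.0334).

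Chromosome 7 held 4 runs. From Zfp84 to Zfp146, 3 of 9 fell: Zfp383, Zfp74 (-0.73) and Zfp84 (-0.59), whose other 2 probe sets gave 0.11 (adjusted p = 0.658) and -0.10 (adjusted p = 0.737). Zfp790 (-0.10), Zfp420 (-0.05), Zfp27 (-0.08), Zfp82 (0.03), Zfp566 (-0.14) and Zfp568 lay among them without a call. From Zfp180 to Zfp94, 2 of 5 fell, Zfp235 and Zfp61 (-0.90), both of which met the rule through control arrays alone, while Zfp180 (-0.00), Zfp109 (0.15) and Zfp93 (-0.06) were not called. From Zfp60 to Zfp850, 2 of 4 fell, Zfp60 (-0.69) and Zfp974 (-0.90; rule met through control arrays alone), beside Zfp626 (-0.09) and Zfp59 (-0.29). From Zfp579 to Zfp580, 0 of 5 were called by limma, with changes between -0.43 for Zfp524 and 0.36 for Zfp579. Zfp524 was called lower with all 6 arrays above the median, the mean of probe sets or no intensity trend (adjusted p 0.0326 to 0.0421). Calls were lost for Zfp84 without treated 1, control 1, control 2 or control 3 (adjusted p 0.0598 to 0.0872), Zfp60 without treated 2, treated 3, control 2 or control 3 (adjusted p 0.0626 to 0.106) and Zfp974 without treated 1, treated 3, control 1, control 2 or control 3 (adjusted p 0.0558 to 0.102). With the signals left unscaled Zfp84, Zfp60 and Zfp974 were not called either (adjusted p 0.0819 to 0.111), and the mean over the probe sets of Zfp84 was -0.19 (adjusted p = 0.352).

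**Figure D5:**
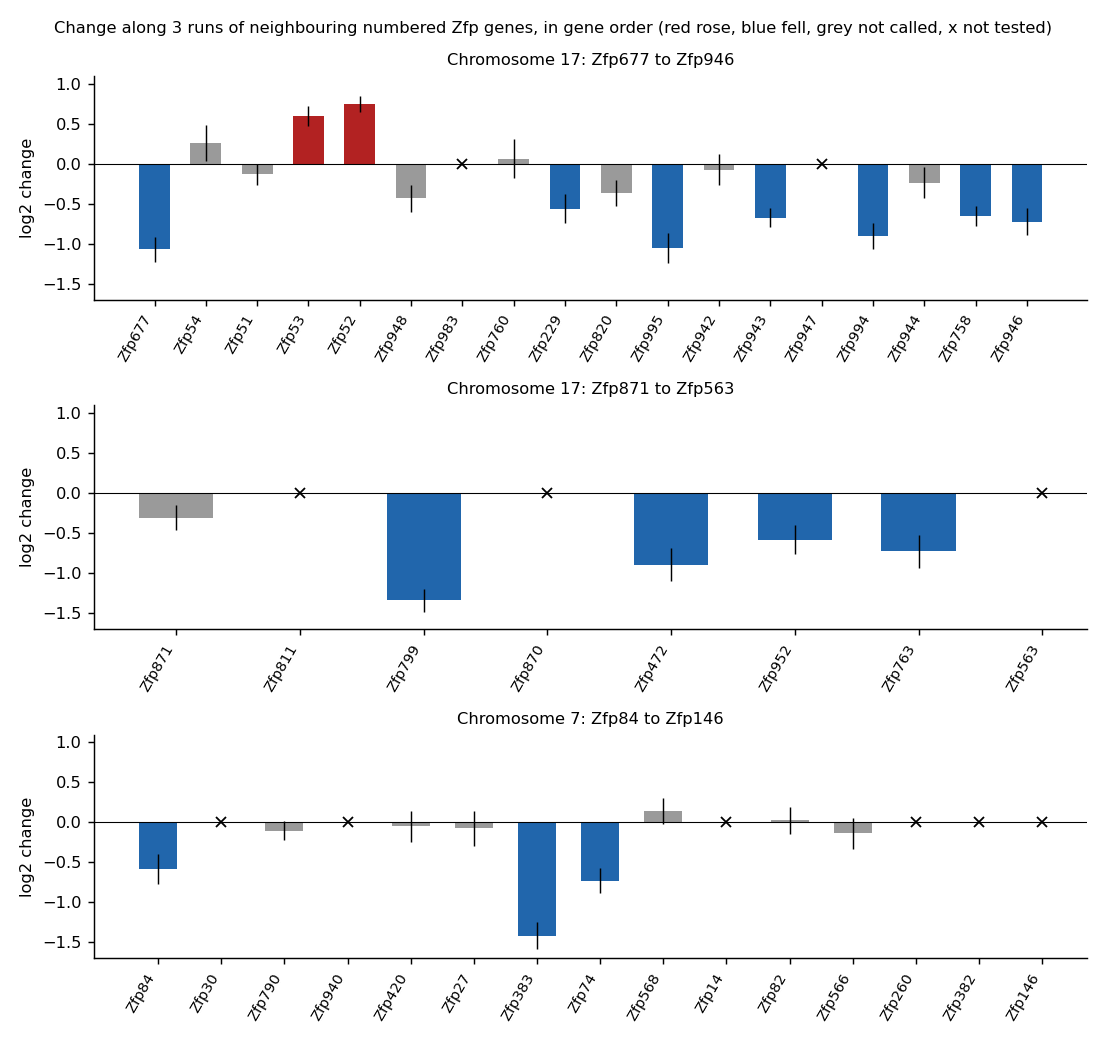
Bars give the log2 change, treated minus control, in the order of the genes along 3 runs, with the SE as a line and a cross for genes not tested. In the upper run Zfp53 and Zfp52 rose (0.60 and 0.74) between genes that fell or were not called. In the middle run 4 of 5 tested genes fell, and in the lower run 3 of 9.

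On chromosome 6, from Zfp786 to Zfp467, 2 of 6 fell, Zfp467 (rule met through control arrays alone) and Zfp282 (-0.54). Zfp398 (0.01), Zfp212 (-0.36), Zfp956 (0.04) and Zfp777 (-0.11) were not called. The call was lost for Zfp282 without treated 1, treated 2, control 1 or control 2 (adjusted p 0.0795 to 0.147) and with the signals left unscaled (adjusted p = 0.137). On chromosome 8, from Zfp868 to Zfp866, 2 of 4 fell, Zfp868 (-0.81) and Zfp869 (-0.70), and Zfp963 (-0.45) and Zfp866 (-0.60) were not called. By chromosome the members tested were most numerous on chromosome 7, where 1 of 59 rose and 17 fell, and on chromosome 17, where 2 of 31 rose and 16 fell. The share that fell was 28.8% on chromosome 7 and 51.6% on chromosome 17, against 36.9% of all 233 members. The difference between these chromosomes was not tested.

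A gene was represented by its brightest tested probe set, and 68 of the 233 members had more than 1. In 45 of the 68 all probe sets of the gene had the same call, in 23 they differed, and Zfp451 was the gene with opposite calls. For 33 members the representing probe set has a name that marks shared probes, and 2 of these rose and 18 fell. Names ending in _x_at, _s_at or _a_at were counted so, and such an ending does not show that another gene shares the probes. For the other 200 members 8 rose and 68 fell. Zfp286 shows how far probe sets can part, as an example chosen after its values were seen: its representing probe set gave -0.28 (adjusted p = 0.395) and a dimmer one -2.08 (adjusted p = 0.00211).

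Members near the limit of the rule had low signals. Just inside it were Zfp248, with 52.4, 49.5 and 38.1 in treated cultures 1 to 3, against 66.4, 80.3 and 52.1 in control cultures 1 to 3, Zfp92, with 48.3, 23.4 and 21.5 in treated cultures 1 to 3, against 66.0, 61.7 and 67.7 in control cultures 1 to 3, and Zfp352, with 72.9, 63.2 and 41.5 in treated cultures 1 to 3, against 32.3, 66.9 and 25.04 in control cultures 1 to 3. Just outside were Zfp563, with 36.8, 63.6 and 56.4 in treated cultures 1 to 3, against 55.1, 51.0 and 44.7 in control cultures 1 to 3, Zfp949, with 39.0, 41.1 and 42.3 in treated cultures 1 to 3, against 49.4, 66.0 and 59.7 in control cultures 1 to 3, and Zfp606, with 47.3, 29.6 and 32.8 in treated cultures 1 to 3, against 89.0, 56.2 and 67.3 in control cultures 1 to 3. The array medians ranged from 51.4 to 60.6 on the same scale. Of the 70 numbered Zfp genes outside the rule, 46 lay below the median of every array at the probe set that came nearest to it.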

How the data were processed

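Signals of 6 arrays, 3 treated and 3 control cultures, were used. The values are linear signal intensities that the authors deposited per probe set and array, made with MAS5 per the submitters' processing notes. The sources used here give neither its version, nor its target level, nor detection calls, so no limit between low signal and background could be set. Groups came from the sample titles.

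The 64 control probe sets were left out. Each array was scaled to a 2% trimmed mean of 193.2, and values were taken as log2(signal + 9.66). Testing was limited to the 23388 of 45037 probe sets above the array median on 3 or more arrays. The comparison used limma 3.58.1 (R 4.3.3; lmFit, then eBayes with its trend option), two-sided, with Benjamini-Hochberg adjustment over all probe sets tested and a threshold of 0.05. No set test was run. The procedure was tested on simulated data. The number of arrays limits the precision.

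Gene names came from the platform annotation, in which 34945 probe sets named 1 gene, 932 several and 9160 none. All 233 members matched a gene of assembly GRCm38.p6 by Entrez identifier, and 191 matched a RefSeq promoter. That assembly was used for chromosomes, gene order and promoters. Proteins were not used here, so KRAB boxes were not counted.

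The members and lists were chosen with earlier results of these data known. Named were, in each direction, up to 12 members with the largest change among those called without overlap of the groups, role list members, members of runs, members with opposite probe sets, Trim28, Setdb1, Atf7ip and every called gene of the corepressor list. Zfp141, Zfp266, Zfp286 and members near the limit of the rule stand outside this rule. Alternatives were other scalings, pseudocounts, filters, probe set rules, no intensity trend, leaving out each array, and a replicate block. The labels do not say that a replicate number marks a shared explant.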

Additional observations from a re-analysis of the deposited data

How the results depend on the processing

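The numbered Zfp genes kept more lower than higher calls in all 17 alternatives, with 8 to 11 higher and 49 to 88 lower, and no member changed from a higher to a lower call or back. Their median log2 change stayed between -0.36 and -0.24. With the signals left unscaled 49 were lower, all among the 86, and the median over all genes tested was -0.08. Of all genes 8.92% were then called higher and 13.5% lower. Without scaling the corepressor list had 1 higher and 6 lower, the Zbtb family 1 and 1, the Zscan and Zkscan family 3 lower, and the Klf and Sp family 0 higher by limma. Without shared-probe sets the corepressor list had 7 lower. The Klf and Sp family had 0 higher by limma without shared-probe sets and with the mean of probe sets, and the Zbtb family had 4 lower with no filter. Leaving out 1 array gave 9 to 11 higher and 67 to 76 lower numbered Zfp genes, 4 to 6 lower Zbtb genes and 0 to 2 higher Klf and Sp genes. Of the 86 lower calls 45, and of the 10 higher calls 8, were kept in every alternative in which the gene was tested. The direction turned for Zfp410 without shared-probe sets (0.27, adjusted p = 0.249), for Zfp592 with the mean of probe sets (-0.40, adjusted p = 0.0343) and for Cbx1 in both (0.96 (adjusted p = 0.0804), and 0.023 with adjusted p = 0.902). The cause was not tested. The replicate block gave 11 higher and 85 lower numbered Zfp genes, of which 10 and 83 were among those called without it. With the block Zfp282 and Cbx3 lost their calls (adjusted p = 0.0664 and 0.0574) and Zfp866 was called (adjusted p = 0.0306), Zfp141 lost its call too, and no other gene under the naming rule changed its call. Deviations from the group means of same-numbered arrays correlated at 0.186, 0.172 and 0.072. Each treated array correlated best with the control array of its own number, a hint from the data and not from the design. Without detection calls the arrays do not show which dim members lie above background.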
